A study of Mus musculus with 9 samples.

Results

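Genes of fibroblasts and of the extracellular matrix were followed in large intestine RNA from mice with and without reduced Dhx9, which encodes a helicase that unwinds RNA and DNA. The set was a list of 40 gene symbols matched through Entrez Gene numbers to the named rows of the deposited expression table. A named row was found for 38 of the 40, out of 24011 named genes in all. All 38 passed the filter on low levels (a mean log2 level of at least 5.28) and belong to the 16808 genes tested. Fbn1 and Thy1os were not matched and are not analysed here. The rule that matches the set to rows uses no measured values, but the members were chosen with earlier results of these data known. Shares of members set beside shares of all genes therefore describe the set and do not test it.

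The arrays came from C57BL/6 mice that carried rtTA, the doxycycline-dependent transcriptional activator, and a short hairpin RNA under its control. Control mice expressed a hairpin against firefly luciferase, a gene that mice lack, and the other groups expressed a hairpin against Dhx9, named DHX9-1271 or DHX9-837. Each of the 3 groups had 3 arrays, and every group received doxycycline at 1 mg/ml and 5% sucrose in its water for 14 days, starting at 4 weeks of age. The labels do not give the promoter that drives rtTA, so the cell types in which the hairpins were active are not known from them. They also do not give the place of the hairpin in the genome, which in many mice of this design is next to Col1a1. The labels do not say whether the replicates of a group were separate animals, so p-values measure only the spread between these samples, which may be technical.

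Fibroblasts of the gut wall lie in the lamina propria and the submucosa and secrete most of its fibrous matrix. Fibrillar collagens give this matrix its tensile strength, laminins, type IV collagen and nidogen form the basement membranes under the epithelium and around vessels, and elastin with its microfibrils gives recoil. Small proteoglycans bind to collagen fibrils and to growth factors, lysyl oxidases cross-link the fibres, and metalloproteinases and their inhibitors set how fast they are removed.

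Dhx9 was checked first. Its log2 level was 9.21, 9.18 and 9.32 in the control arrays, 8.27, 8.22 and 8.18 in the DHX9-1271 arrays and 8.19, 8.22 and 8.20 in the DHX9-837 arrays. Every hairpin array lay below every control array, and the fitted difference of both hairpins from control was -1.02 (SE 0.044, limma adjusted p = 1.28e-05). The median log2 level over all genes lay between 6.25 and 6.29 in the 9 arrays. Levels below are log2 values of 1 gene across arrays, and levels of different genes are not compared, because their probes differ. RNA came from whole tissue, so more cells of a type and more RNA per cell cannot be told apart in any of the results.

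The fibroblast and matrix genes that passed the test with reduced Dhx9 were all higher, and most of the 38 were not called. Against control, with both hairpin groups weighted equally, 12 of the 38 rose (31.6%) and 0 fell. The threshold was an adjusted p under 0.05 in limma, with Benjamini-Hochberg adjustment over all genes tested. At this adjusted threshold, 8.13% of all genes tested were called higher and 5.33% lower. At an unadjusted limma p under 0.05, 24 members lay higher and 1, Col12a1, lower. The share of all genes at the unadjusted threshold was not counted, so this and later unadjusted counts have no background beside them. The 12 called members were Col4a1, Lamb1, Lamc1, Col6a3, Dcn, Bgn, Fbln1, Postn, Mmp14, Pdgfra, Pdgfrb and Vim. Their rises were small, from 0.17 (Vim) to 0.38 (Dcn and Bgn) on the log2 scale, or 1.13-fold to 1.3-fold. The median difference over the 38 members was 0.174, against 0.001 over all genes. The fitted difference was above 0 for 34 of the 38 members (89.5%, against 50.4% of all genes), and the other 4 were Col12a1, Fn1, Mgp and Timp3. For 14 members, the 12 called ones with Nid1 and Fbln5, every hairpin array lay above every control array (36.8%, against 10.7% of all genes). The reverse held for 0 members, against 6.73% of all genes.

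**Figure D1:**
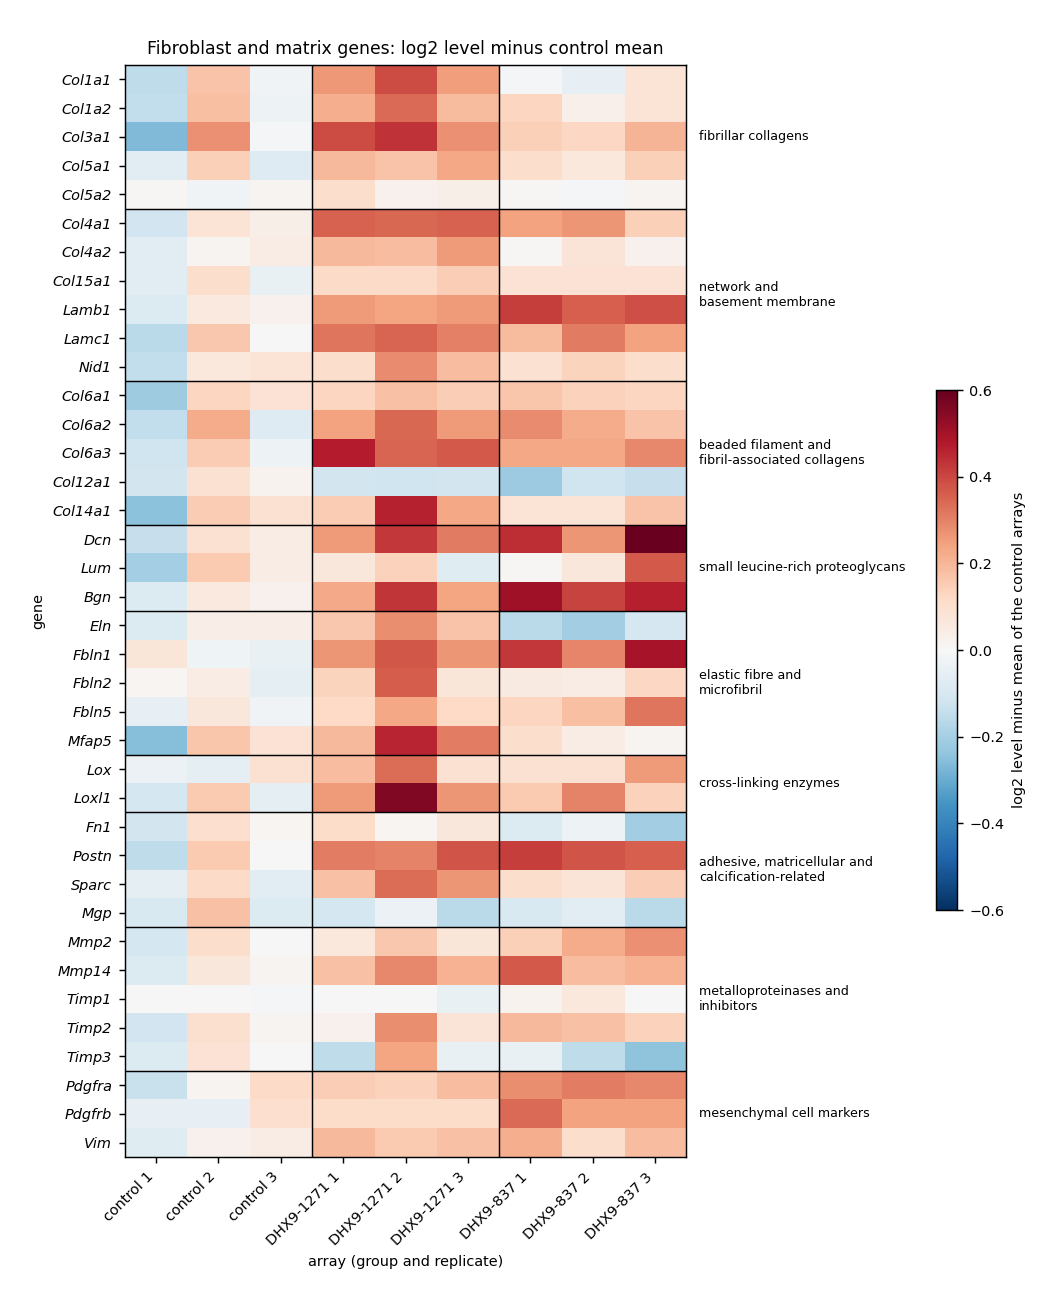
Log2 level of each of the 38 genes (rows, grouped by role) in each of the 9 arrays (columns), minus the mean of the 3 control arrays for that gene, with red above and blue below that mean. Most rows are red in the hairpin arrays, rows such as Col1a1 and Mfap5 are paler in DHX9-837, and control replicate 1 is blue in 34 of the 38 rows.

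Levels of most members also varied together between arrays of the same group. In control replicate 1, 34 of the 38 members lay below their control mean, against 50.4% of all genes tested. There 25 members had their lowest level of the 9 arrays, against 19.9% of all genes tested. In control replicate 2, 4 of the 38 lay below the control mean, against 52.9% of all genes tested. In DHX9-1271 replicate 2, 16 of the 38 members had their highest level of the 9 arrays. The share of all genes with their highest level there was not counted. The mean over the members was 8.33, 8.52 and 8.44 in the control arrays, 8.60, 8.68 and 8.60 in DHX9-1271 and 8.58, 8.56 and 8.59 in DHX9-837. The groups did not overlap in this mean. Across the 703 pairs of members, the deviations from the group means had a median Pearson correlation of 0.48, with 591 pairs above 0. Without control replicate 1 the median was 0.23, with 461 pairs above 0. With all 9 arrays, pairs ranged from -0.86 to 0.95, and some members did not follow the rest. The correlation with the mean of the other members was -0.36 for Col5a2, -0.09 for Fbln1, 0.02 for Timp1 and 0.05 for Pdgfrb, against 0.95 for Col1a1. These correlations describe 9 arrays, and members on the same array share its RNA and its hybridisation, so they are not independent. The same correlations were not computed for other genes, so they are not shown to be particular to the members. Leaving out control replicate 1 lowered the count of members called higher from 12 to 6, with 4.63% of all genes called higher then. Leaving out DHX9-1271 replicate 2 lowered it to 7 (5.87% of all genes), and leaving out control replicate 2 raised it to 17 (6.88% of all genes). The 6 genes called in every alternative that tested them, including each array left out, were Col4a1, Lamb1, Col6a3, Bgn, Fbln1 and Postn.

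Promoter sequence was available for 23 of the 38 members, from the RefSeq annotation of GRCm38.p6, in 27 windows of the 250 bases before a transcription start. Of the 12 called members, 9 had an entry, and 5 had a window outside all annotated genes, their own included (Bgn, Fbln1, Mmp14, Postn and Vim). The sequences of Bgn, Fbln1, Mmp14 and Vim are shown because these genes rose together and their windows hold at least 1 of the motifs searched. The windows are on the plus strand at chrX:73483351-73483600 for Bgn, chr15:85205699-85205948 for Fbln1, chr14:54431348-54431597 for Mmp14 and chr2:13574061-13574310 for Vim. Each ends at the base before an annotated start. Capitals mark the motifs found.
Bgn: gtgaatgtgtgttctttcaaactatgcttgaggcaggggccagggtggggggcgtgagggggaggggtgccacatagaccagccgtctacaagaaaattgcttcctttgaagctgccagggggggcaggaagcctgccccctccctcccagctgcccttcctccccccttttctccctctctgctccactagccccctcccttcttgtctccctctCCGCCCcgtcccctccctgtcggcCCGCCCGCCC
Fbln1: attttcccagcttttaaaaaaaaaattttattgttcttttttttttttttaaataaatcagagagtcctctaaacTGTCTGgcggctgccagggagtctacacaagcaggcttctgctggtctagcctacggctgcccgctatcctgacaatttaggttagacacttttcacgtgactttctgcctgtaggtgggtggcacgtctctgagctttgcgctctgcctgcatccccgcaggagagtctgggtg
Mmp14: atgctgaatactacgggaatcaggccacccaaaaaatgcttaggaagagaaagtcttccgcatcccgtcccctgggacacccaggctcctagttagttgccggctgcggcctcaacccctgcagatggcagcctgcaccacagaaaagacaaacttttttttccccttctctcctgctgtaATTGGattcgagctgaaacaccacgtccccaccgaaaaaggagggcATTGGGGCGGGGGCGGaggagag
Vim: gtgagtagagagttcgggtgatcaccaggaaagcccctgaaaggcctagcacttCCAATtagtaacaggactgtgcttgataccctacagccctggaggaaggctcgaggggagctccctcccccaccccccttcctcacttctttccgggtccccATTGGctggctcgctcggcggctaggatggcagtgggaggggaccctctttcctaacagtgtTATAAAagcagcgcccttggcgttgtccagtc

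The searched motifs were the TATA box (TATAAA), the CCAAT box (CCAAT), the GC box (GGGCGG), the AP-1 site (TGANTCA) and the SMAD element (CAGACA), each on both strands. In the capitals above, Bgn has GC boxes read on the other strand, Fbln1 has a SMAD element on the other strand, Mmp14 has CCAAT boxes on the other strand and GC boxes, and Vim has CCAAT boxes on both strands and a TATA box. In Mmp14 the CCAAT box nearest the start overlaps a GC box by 1 base. Fbln1 has another annotated start, with a window at chr15:85205758-85206007 that is not shown because it reaches into the gene. That window overlaps the one shown, holds the same SMAD element and also has a GC box. A GC box was in 15 of the 27 member windows (55.6%, against 32.7% of 32851 windows of all genes), and the median GC content was 58.8% against 52.4%. A CCAAT box was in 10 windows (37% against 33.8%), a SMAD element in 7 (25.9% against 17.1%), a TATA box in 3 (11.1% against 12.4%) and an AP-1 site in 1 (3.7% against 6.75%). Some members have more than 1 window and these can overlap, so windows are not independent. The same SMAD element of Fbln1 counts in both of its windows. These matches describe letters in a window, and factor binding was not measured.

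**Figure D2:**
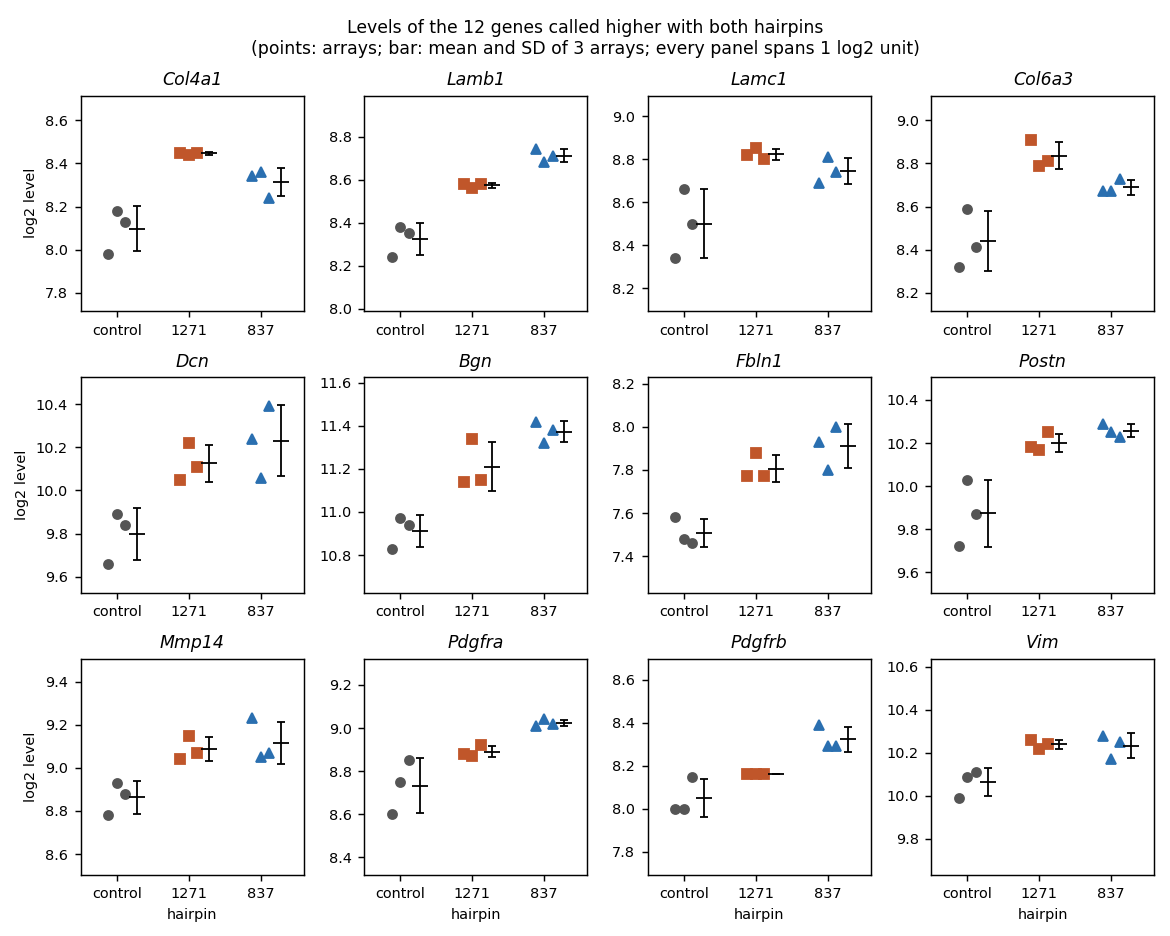
Log2 level of each of the 12 genes called higher against control with both hairpin groups weighted equally, by group. Points are arrays, bars are the mean and SD of 3 arrays, and every panel spans 1 log2 unit. In every panel the hairpin arrays lie above all control arrays, and Lamb1, Pdgfra and Pdgfrb lie higher in DHX9-837 than in DHX9-1271.

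Basement membrane genes gave 3 of the 12 calls, from 6 genes tested, with a median difference of 0.22. Lamb1 encodes the beta-1 chain of laminin, the protein that epithelial cells attach to. Its log2 level was 8.24, 8.38 and 8.35 in control, 8.58, 8.56 and 8.58 in DHX9-1271 and 8.74, 8.68 and 8.71 in DHX9-837. The 3 groups did not overlap. With both hairpin groups weighted equally, Lamb1 rose by 0.32 against control (SE 0.043, limma adjusted p = 0.00248). Col4a1 encodes a chain of the type IV collagen network. It measured 7.98, 8.18 and 8.13 in control, 8.45, 8.44 and 8.45 in DHX9-1271 and 8.34, 8.36 and 8.24 in DHX9-837. All hairpin arrays were above all controls, the DHX9-1271 arrays were the highest, and the rise was 0.29 (SE 0.052, limma adjusted p = 0.00877). Lamc1, which encodes the laminin gamma-1 chain, stood at 8.34, 8.66 and 8.50 in control, 8.82, 8.85 and 8.80 in DHX9-1271 and 8.69, 8.81 and 8.74 in DHX9-837. The highest control array lay just under the lowest hairpin array, and the rise was 0.28 (SE 0.066, limma adjusted p = 0.0233). Without control replicate 1, control replicate 3 or DHX9-1271 replicate 2, Lamc1 was no longer called, and over all alternatives its adjusted p reached 0.0658. Col4a2, the partner chain of Col4a1 in the type IV collagen molecule, differed by 0.13 with both hairpins (limma adjusted p = 0.0816). Col15a1, a collagen at the outer face of basement membranes, differed by 0.10 (limma adjusted p = 0.164). Nid1, which links laminin to type IV collagen, differed by 0.15 (limma adjusted p = 0.156).

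Small leucine-rich proteoglycans gave 2 calls from 3 genes. Bgn encodes biglycan, which binds collagen and growth factors. Its log2 level was 10.83, 10.97 and 10.94 in control, 11.14, 11.34 and 11.15 in DHX9-1271 and 11.42, 11.32 and 11.38 in DHX9-837. Every hairpin array lay above every control array, and Bgn rose by 0.38, or 1.3-fold (SE 0.058, limma adjusted p = 0.00423). Dcn encodes decorin, which controls how collagen fibrils grow in width. It measured 9.66, 9.89 and 9.84 in control, 10.05, 10.22 and 10.11 in DHX9-1271 and 10.24, 10.06 and 10.39 in DHX9-837. The hairpin groups overlapped each other but not the controls, and the rise was 0.38 (SE 0.081, limma adjusted p = 0.0164). Without control replicate 1 Dcn was not called (its adjusted p there, 0.0683, was the highest of all alternatives). Lum encodes lumican, a relative of decorin. It measured 6.47, 6.83 and 6.72 in control, 6.74, 6.81 and 6.60 in DHX9-1271 and 6.68, 6.74 and 7.04 in DHX9-837. Its groups overlapped, and the difference of 0.10 did not pass (SE 0.1, limma adjusted p = 0.58).

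Among adhesive and matricellular genes, 1 of 4 rose. Postn encodes periostin, a secreted protein of fibroblasts that binds collagen and integrins. Log2 levels of Postn were 9.72, 10.03 and 9.87 in control, 10.18, 10.17 and 10.25 in DHX9-1271 and 10.29, 10.25 and 10.23 in DHX9-837. The hairpin arrays lay in a narrow band above a wide spread of controls, and Postn rose by 0.36 (SE 0.063, limma adjusted p = 0.00817). Sparc, which binds collagen during its assembly, differed by 0.19 (limma adjusted p = 0.0556). Fn1, which encodes fibronectin, differed by -0.02 (limma adjusted p = 0.864), and Mgp, which encodes an inhibitor of calcification, by -0.10 (limma adjusted p = 0.344).

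Elastic fibre and microfibril genes also gave 1 call, from 5 tested. Fbln1 encodes fibulin-1, a glycoprotein of basement membranes and elastic fibres. It measured 7.58, 7.48 and 7.46 in control, 7.77, 7.88 and 7.77 in DHX9-1271 and 7.93, 7.80 and 8.0 in DHX9-837. Control and hairpin arrays were clearly apart, and Fbln1 rose by 0.35 (SE 0.057, limma adjusted p = 0.00536). It was the only one of the 6 steadily called genes for which control replicate 1 was the highest of the controls. Fbln5, which tethers elastin to cells, differed by 0.18 (limma adjusted p = 0.056). Fbln2 differed by 0.13 (limma adjusted p = 0.215) and Mfap5, a microfibril component, by 0.19 (limma adjusted p = 0.212). Eln, the elastin gene, differed by 0.03 over both hairpins and is taken up with the hairpin comparison below.

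Of 5 genes for beaded filament and fibril-associated collagens, 1 rose. Col6a3 encodes a chain of type VI collagen, which forms beaded filaments around cells. On the log2 scale it stood at 8.32, 8.59 and 8.41 in control, 8.91, 8.79 and 8.81 in DHX9-1271 and 8.67, 8.67 and 8.73 in DHX9-837. The 3 groups were separate, with DHX9-1271 on top, and the rise was 0.32 (SE 0.062, limma adjusted p = 0.0111). The other type VI chains of the set differed by 0.15 (Col6a1, limma adjusted p = 0.209) and 0.25 (Col6a2, limma adjusted p = 0.0688). Col14a1, which sits on fibril surfaces, differed by 0.20 (limma adjusted p = 0.223). Col12a1, another collagen of fibril surfaces, had the lowest difference of the 38 members at -0.14 (limma adjusted p = 0.114). Without control replicate 1 it was the only member called lower.

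The 5 fibrillar collagens gave 0 calls in limma against control, with both hairpins or with either one. At an unadjusted p under 0.05, 3 of the 5 lay higher with both hairpins, 4 with DHX9-1271 and 0 with DHX9-837. The fit over both hairpins gave 0.15 for Col1a1, 0.17 for Col1a2, 0.26 for Col3a1, 0.15 for Col5a1 and 0.03 for Col5a2, with limma adjusted p-values from 0.104 (Col5a1) to 0.647 (Col5a2). Col1a1 and Col1a2 encode the chains of type I collagen, Col3a1 that of type III, and Col5a1 and Col5a2 chains of type V, which starts fibrils. Col5a1 measured 8.14, 8.35 and 8.13 in control, 8.40, 8.38 and 8.44 in DHX9-1271 and 8.31, 8.27 and 8.35 in DHX9-837. Control replicate 2 lay among the hairpin arrays, and the other controls lay below all of them. Col3a1 measured 9.74, 10.28 and 10 in control, 10.40, 10.44 and 10.28 in DHX9-1271 and 10.15, 10.13 and 10.21 in DHX9-837. Control replicate 2 lay just under the lowest DHX9-1271 array, with the same value at this rounding, and above all DHX9-837 arrays, and the control SD was 0.27. Without control replicate 2, 8 members were newly called, of which 4 were fibrillar collagens (Col1a1, Col1a2, Col3a1 and Col5a1).

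Cross-linking enzymes gave 0 calls in limma from 2 genes, both of which had an unadjusted p under 0.05. Loxl1, a lysyl oxidase of elastic fibres, measured 7.38, 7.64 and 7.43 in control, 7.74, 8.04 and 7.75 in DHX9-1271 and 7.64, 7.78 and 7.62 in DHX9-837. The lowest DHX9-837 array lay under the highest control, and the difference was 0.28 (SE 0.085, limma adjusted p = 0.0631). Lox, which cross-links collagen and elastin, differed by 0.17 (limma adjusted p = 0.121).

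Among the metalloproteinases and their inhibitors 1 of 5 rose. Mmp14 encodes a membrane-bound protease that cleaves collagen at the cell surface. Log2 levels of Mmp14 were 8.78, 8.93 and 8.88 in control, 9.04, 9.15 and 9.07 in DHX9-1271 and 9.23, 9.05 and 9.07 in DHX9-837. The hairpin groups overlapped each other and lay above the controls, and Mmp14 rose by 0.24 (SE 0.057, limma adjusted p = 0.0244). The call was lost without control replicate 1 or 3, or without DHX9-1271 replicate 2 or 3, and the adjusted p over all alternatives ranged from 0.0107 to 0.093. Mmp2, a secreted protease that Mmp14 activates, differed by 0.15 (limma adjusted p = 0.107). The inhibitors Timp1, Timp2 and Timp3 differed by 0.01, 0.15 and -0.07, with limma adjusted p-values of 0.906, 0.174 and 0.664. Timp1, at a mean log2 level of 5.39 in control lay just above the filter of 5.28.

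All 3 markers of mesenchymal cells were called, with the smallest rises among the 12. Pdgfra encodes the platelet-derived growth factor receptor alpha of fibroblasts. It measured 8.60, 8.75 and 8.85 in control, 8.88, 8.87 and 8.92 in DHX9-1271 and 9.01, 9.04 and 9.02 in DHX9-837. The 3 groups did not overlap, but the highest control was close to the DHX9-1271 arrays, and the rise was 0.22 (SE 0.054, limma adjusted p = 0.028). Pdgfrb encodes the beta receptor, which pericytes and fibroblasts carry. Its log2 level was 8.0, 8.0 and 8.15 in control, 8.16, 8.16 and 8.16 in DHX9-1271 and 8.39, 8.29 and 8.29 in DHX9-837. The rise was 0.19 (SE 0.047, limma adjusted p = 0.0293), and control replicate 3 was almost level with DHX9-1271. Identical values in several arrays, as for Pdgfrb, were present in 11 of the 38 members and in 45.3% of all tested genes. Vim encodes vimentin, the intermediate filament protein of mesenchymal cells. It measured 9.99, 10.09 and 10.11 in control, 10.26, 10.22 and 10.24 in DHX9-1271 and 10.28, 10.17 and 10.25 in DHX9-837. All hairpin arrays lay above all controls, and the rise was 0.17 (SE 0.043, limma adjusted p = 0.0327). These 3 calls were the least steady when 1 array was left out. Pdgfra was still called only without control replicate 3 or DHX9-837 replicate 1, Pdgfrb only without control replicate 3 or DHX9-837 replicate 2 or 3, and Vim only without control replicate 3 or DHX9-837 replicate 2. Over all alternatives their limma adjusted p-values reached 0.0758, 0.101 and 0.108.

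Each hairpin was also compared with control on its own. These comparisons share the 3 control arrays, so their values are given side by side and are not independent of each other. With DHX9-1271, 7 of the 38 members rose (18.4%) and 0 fell, while 2.83% of all genes were called higher and 1.58% lower. The 7 were Col4a1, Col4a2, Lamb1, Col6a3, Bgn, Fbln1 and Postn. With DHX9-837, 10 rose (26.3%) and 0 fell, while 8.67% of all genes were called higher and 6.91% lower. The 10 were Col4a1, Lamb1, Col6a3, Dcn, Bgn, Fbln1, Postn, Mmp14, Pdgfra and Pdgfrb. At an unadjusted limma p under 0.05, 0 members lay lower with DHX9-1271 and 2 with DHX9-837. The median member difference was 0.205 for DHX9-1271 and 0.146 for DHX9-837, against 0.006 and -0.001 over all genes. The fitted difference was above 0 for 35 members with DHX9-1271 (92.1%, against 51.9% of all genes) and for 33 with DHX9-837 (86.8%, against 49.7%). Every DHX9-1271 array lay above every control array for 27 members (71.1%, against 15.4% of all genes), and every DHX9-837 array did for 16 (42.1%, against 17.1%). For Col12a1 and Eln every DHX9-837 array lay below every control array (5.26% of members, against 14.3% of all genes). With single arrays left out, 0 of 38 members passed in limma for DHX9-1271 without its replicate 1, 2 or 3, where 1.12%, 0.779% and 0.458% of all genes were called higher. The count was 1 without control replicate 1 or 3 (1.29% and 2.17% of all genes) and 11 without control replicate 2 (2.56%). The DHX9-837 count was 6 without control replicate 1 (5.93% of all genes). The share of all genes called higher was thus also below that of the full fit in each of these.

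**Figure D3:**
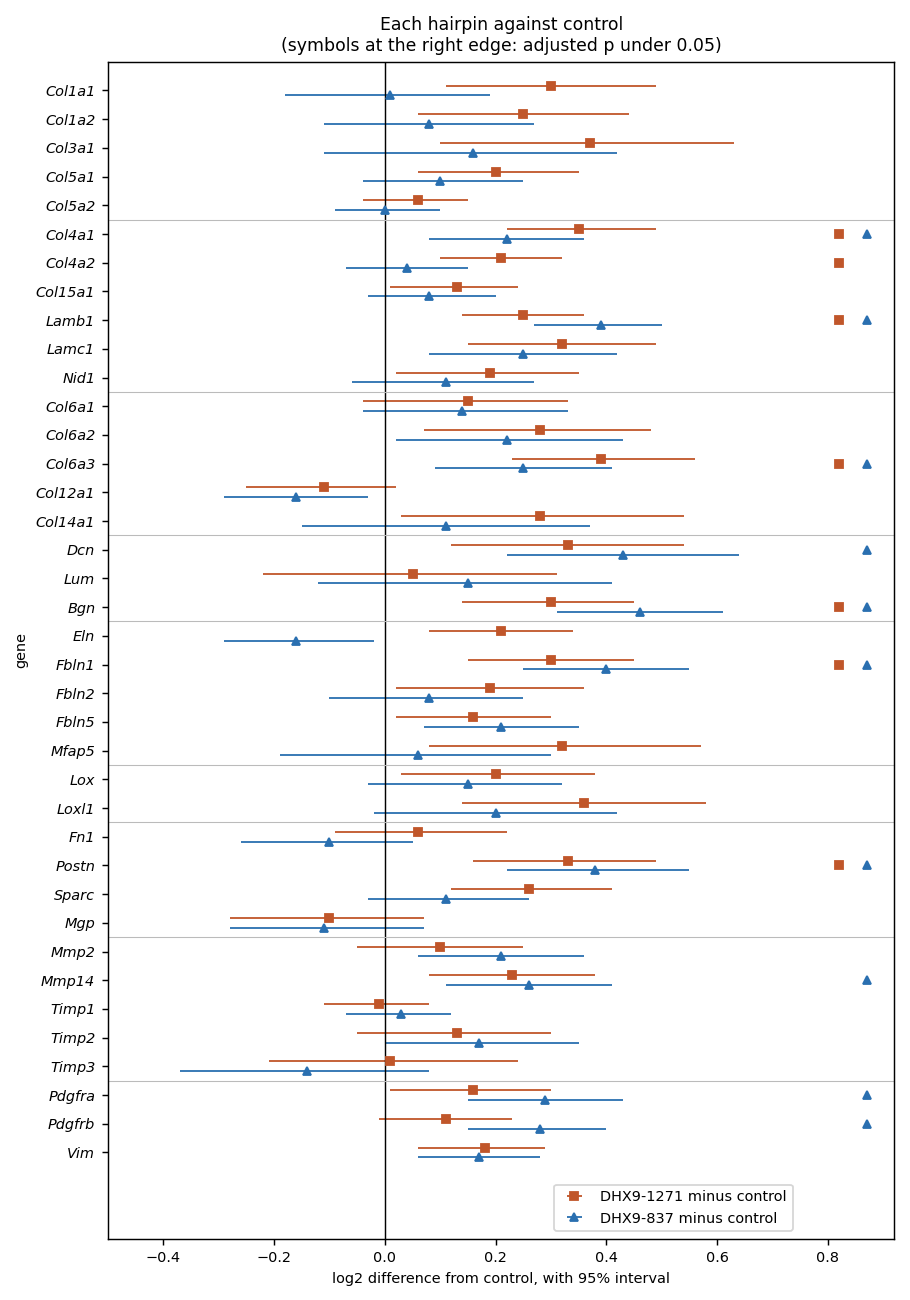
Log2 difference from control for each of the 38 genes, with its 95% interval, for DHX9-1271 (squares) and DHX9-837 (triangles), in role order. Symbols at the right edge mark an adjusted p under 0.05. Most intervals of the hairpins overlap, the fibrillar collagens lie further right with DHX9-1271, and Eln lies at 0.21 with DHX9-1271 and -0.16 with DHX9-837.

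The difference between the hairpins was tested directly, as DHX9-837 minus DHX9-1271. Of the 38 members, 0 were called higher and 1, Eln, was called lower, while 0.696% of all genes were called higher and 1.21% lower. At an unadjusted limma p under 0.05, 3 members lay higher and 6 lower. Elastin is the protein that lets fibres recoil. The log2 level of Eln was 7.38, 7.50 and 7.50 in control, 7.62, 7.74 and 7.63 in DHX9-1271 and 7.30, 7.25 and 7.36 in DHX9-837. The 3 groups were separate, with DHX9-1271 above control and DHX9-837 below it. The difference between the hairpins was -0.36 (95% interval -0.49 to -0.23, limma adjusted p = 0.0218). Neither hairpin passed against control alone, at 0.21 for DHX9-1271 (limma adjusted p = 0.0841) and -0.16 for DHX9-837 (limma adjusted p = 0.106). The call between hairpins was lost without any one of the DHX9-1271 replicates and without DHX9-837 replicate 1 or 2. Smooth muscle cells make elastin too, and between the hairpins their 18 tested markers had a median difference of -0.12. In limma 0 of them were called, 7 lay lower and 1 higher at an unadjusted p under 0.05, and the contractile genes Myh11, Tagln and Cnn1 differed by -0.21, -0.23 and -0.29 (limma adjusted p-values 0.151, 0.14 and 0.195). The part of smooth muscle in the Eln difference was not tested.

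Several collagens had lower values in DHX9-837 than in DHX9-1271, without passing the test of that difference. Every DHX9-837 array lay below every DHX9-1271 array for 14 members (36.8%, against 12.6% of all genes), among them all 5 fibrillar collagens, Col4a1, Col4a2, Col6a3, Col15a1, Col12a1, Eln, Mfap5, Fn1 and Sparc. The reverse held for Lamb1, Pdgfra and Pdgfrb (7.89%, against 9.37% of all genes). The fitted difference was above 0 for 13 members (34.2%, against 48.2% of all genes). Col1a1 measured 9.94, 10.26 and 10.07 in control, 10.35, 10.48 and 10.34 in DHX9-1271 and 10.08, 10.04 and 10.17 in DHX9-837. All DHX9-1271 arrays lay above the other 6, DHX9-837 lay within the control range, and the difference between hairpins was -0.29 (95% interval -0.48 to -0.10, limma adjusted p = 0.133). Col4a2 measured 7.79, 7.87 and 7.90 in control, 8.05, 8.04 and 8.11 in DHX9-1271 and 7.86, 7.93 and 7.88 in DHX9-837. It rose by 0.21 with DHX9-1271 (limma adjusted p = 0.045), and DHX9-837 overlapped control. The hairpins differed by -0.17 for Col4a2 (95% interval -0.28 to -0.06, limma adjusted p = 0.123), so its call with 1 hairpin is not shown to be specific to that hairpin. For Bgn and Pdgfrb the difference between hairpins was 0.17 (95% interval 0.01 to 0.32) and 0.16 (95% interval 0.04 to 0.29), with limma adjusted p-values of 0.295 and 0.197. Dhx9 itself differed between the hairpins by -0.02 (95% interval -0.14 to 0.09, limma adjusted p = 0.908).

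Other genes of the same processes were read from lists that do not contain the 38. Wherever such a list, or a cell type list below, has 0 genes lower with both hairpins in limma, the count at an unadjusted p under 0.05 was 0 too. For all these lists the background is the same, with 8.13% of all genes tested called higher with both hairpins and 5.33% lower. Counts near those shares are not read as a result about a list. Of 20 other collagen chains, 2 rose (Col6a4 and Col18a1) and 1 fell (Col28a1), and their median difference with both hairpins was -0.04. Of 24 collagen processing genes, 3 rose and 0 fell, with a median of 0.04. These were Pcolce, which speeds the trimming of procollagen (0.42, limma adjusted p = 0.00874), Loxl2, a lysyl oxidase (0.40, limma adjusted p = 0.0173), and Crtap, which modifies collagen prolines (0.23, limma adjusted p = 0.00869). Of 35 other matrix glycoproteins and proteoglycans, 8 rose and 2 fell, with a median of 0.12. The large proteoglycan gene Vcan rose by 0.48 (SE 0.055, limma adjusted p = 0.00118) and Thbs1, which encodes thrombospondin-1, fell by 0.41 (SE 0.077, limma adjusted p = 0.00963). Of 17 other matrix proteases and inhibitors, 2 rose and 1 fell, with a median of 0.04. Mmp9, a gelatin-cleaving protease, rose by 0.45 (SE 0.078, limma adjusted p = 0.00762).

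TGF-beta signalling drives matrix production in fibroblasts. Of 21 genes of this pathway, 2 were called higher and 3 lower, with a median of -0.02, while 8.13% of all genes were called higher and 5.33% lower. Ccn2, a matricellular gene induced by TGF-beta and by YAP, measured 8.12, 7.61 and 8.25 in control, 6.98, 6.93 and 6.88 in DHX9-1271 and 6.82, 6.98 and 7.10 in DHX9-837. Every hairpin array was below every control array, and Ccn2 fell by 1.04 (SE 0.13, limma adjusted p = 0.00169). Its relative Ccn1 fell by 0.90 (SE 0.17, limma adjusted p = 0.0106). Tgfbr2, a TGF-beta receptor, rose by 0.25 (SE 0.045, limma adjusted p = 0.00874).

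A list of crypt-niche fibroblast genes gave 6 rises and 0 falls among 25 genes, with a median of 0.16. It holds signals to the crypt and also other genes, such as Foxl1, Gli1, Ptch1 and Cd81. Hhip is on the smooth muscle list too. Nrg1, a growth factor for epithelial cells, measured 7.26, 7.76 and 7.51 in control, 8.14, 8.17 and 8.12 in DHX9-1271 and 8.58, 8.73 and 8.44 in DHX9-837. The 3 groups did not overlap, and Nrg1 rose by 0.85, or 1.81-fold (SE 0.1, limma adjusted p = 0.00151). Hhip, an inhibitor of hedgehog signals, rose by 0.44 (limma adjusted p = 0.00279), Hgf, hepatocyte growth factor, by 0.37 (limma adjusted p = 0.00986), and Cd81, a membrane protein of crypt-base fibroblasts, by 0.30 (limma adjusted p = 0.00594). Of 18 fibroblast surface and transcription markers, 3 rose (Serping1, Tcf21 and Thy1) and 0 fell, with a median of 0.07. Thy1, a surface protein listed as a fibroblast marker, measured 7.26, 7.12 and 7.07 in control, 7.35, 7.39 and 7.42 in DHX9-1271 and 7.30, 7.28 and 7.30 in DHX9-837. Thy1 rose by 0.19 (SE 0.048, limma adjusted p = 0.0352), and the cell type that its RNA came from was not measured.

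Other cell types make some of the 38 gene products, and their markers were read beside the members. Endothelial cells produce type IV collagen and laminin, and 7 of 18 endothelial markers rose, 0 fell, and the median was 0.13. The vessel genes Emcn, Eng, Cdh5 and Pecam1 rose by 0.35, 0.30, 0.28 and 0.22 (limma adjusted p-values 0.00257, 0.00862, 0.0131 and 0.0191). The mean of these markers was 7.19 to 7.24 over control arrays, 7.32 to 7.41 over DHX9-1271 and 7.30 to 7.35 over DHX9-837, so both hairpin groups lay above the control range, as for the member mean. Among macrophage markers 5 of 11 rose and 0 fell, with list means of 7.29 to 7.35 in control, 7.44 to 7.56 in DHX9-1271 and 7.62 to 7.67 in DHX9-837. Among markers of B and plasma cells 5 of 11 rose and 0 fell, with list means of 7.21 to 7.34, 7.48 to 8.01 and 7.53 to 7.90. The part of these cells in the member rises was not tested.

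Smooth muscle also makes elastin and collagens, and 2 of its 18 tested markers were higher (Hhip and Actn1) and 0 lower with both hairpins, with a median of -0.01. The smooth muscle mean was 9.53 to 9.69 in control, 9.63 to 9.76 in DHX9-1271 and 9.47 to 9.64 in DHX9-837, and the groups overlapped. Of 8 pericyte markers 0 were called in limma and 0 had an unadjusted p under 0.05, and their mean was 7.43 to 7.53, 7.47 to 7.54 and 7.41 to 7.51. Of 5 mesothelial markers 0 were called in limma and 0 had an unadjusted p under 0.05, with a median of -0.06, and of 10 markers of enteric neurons and glia 1 rose (Vip) and 0 fell. In 18 epithelial markers 3 rose and 2 fell, with means of 10.93 to 10.99 in control, 10.97 to 11.02 in DHX9-1271 and 10.98 to 11.04 in DHX9-837. Adipocyte markers gave 2 rises and 1 fall among 8 genes, with a median of 0.18. Their median was -0.04 with DHX9-1271 and 0.42 with DHX9-837. Directly between the hairpins, 3 of the 8 were called higher in DHX9-837 in limma, against 0.696% of all genes. The part of adipocytes in the member differences was not tested. All 18 listed epithelial markers, with the colonic genes Car1 and Muc2 among them, and 18 of 19 listed smooth muscle markers passed the level filter. The filter kept 16808 of the 24011 named genes. All 18 endothelial and all 8 pericyte markers passed too, so passing does not check the labelled tissue.

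**Figure D4:**
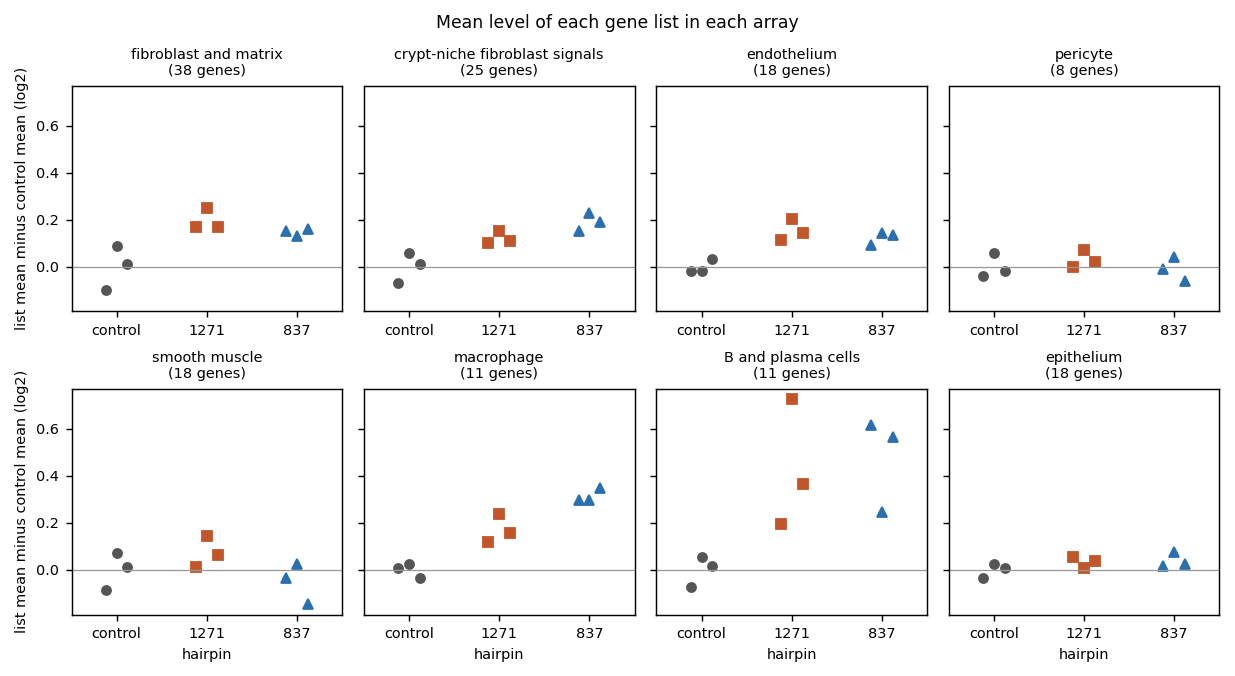
Mean log2 level of 8 gene lists in each array, minus the mean of the 3 control arrays, by group. Each point is an array. The 38 fibroblast and matrix genes and the crypt-niche, endothelial, macrophage and B cell lists lie above the control arrays in all hairpin arrays. The pericyte and smooth muscle lists overlap control.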

How the data were processed

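Total RNA of the large intestine was hybridised to Affymetrix Mouse Gene 2.0 ST arrays, 3 each for control, DHX9-1271 and DHX9-837, with groups read from the titles. The authors deposited log2 expression levels made by RMA, for which the submitters' processing notes name oligo 1.30.0 on R 3.1.1. Quantile normalization in RMA hides a shift of most transcripts one way, and its median polish can leave identical values. How probes were assigned to genes, and on which genome build, is not given in the sources used here. Arrays have no read depth, so their number limits the precision. Of 24973 probe sets, 24015 were named with 1 symbol by the platform's probe table and 0 with several, and the brightest was kept for each of 24011 symbols.

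Genes under the 30th percentile of mean level were left out. A group-means model over all 9 arrays was fitted with limma 3.58.1 in R 4.3.3 (6 residual and 2.84 prior degrees of freedom), with 4 contrasts. Two-sided p-values received the Benjamini-Hochberg adjustment across 16808 genes, and a call needs an adjusted p under 0.05. The method was tested on simulated data. The members, lists, roles and alternatives were chosen with earlier results of these data known. All members are accounted for. Values by array were given for called members and for those with the smallest p in their role, and up to 4 called genes of smallest p were named from each list, with others named where a count was small. Lum, Col3a1, Col1a1, Nrg1, Thy1 and Ccn2 were shown by array, and Myh11, Tagln and Cnn1 were named, after their values were seen. Same-numbered arrays of different groups deviated from their group means with correlations from -0.37 to 0.26, so replicate numbers were not used as pairs. The alternatives changed the filter on levels, the probe set kept for a gene, centring, normalization by cyclic loess, moderation, array weights, the genes with ties, the groups in the fit, a block for the replicate number, or left out 1 array. RefSeq promoters of GRCm38.p6 were matched by symbol. Figures were drawn with matplotlib 3.10.9.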

Additional observations from a re-analysis of the deposited data

Results flagged for a closer look

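Eln differed between the hairpins by -0.36 on the log2 scale (DHX9-837 minus DHX9-1271; 95% interval -0.49 to -0.23, limma adjusted p = 0.0218), with every DHX9-837 array below and every DHX9-1271 array above every control array. It is listed here because its effects with the 2 hairpins differed by a direct test. The 18 smooth muscle markers tested had a median of -0.12 in the same comparison, and the cause of the difference was not tested.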

How the results depend on the processing

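All 75 alternative values of the members' median differences kept their sign and moved by less than 0.065. That is the SD of the member mean between arrays of a group. They ran from 0.127 to 0.221 with both hairpins, 0.175 to 0.248 with DHX9-1271 and 0.084 to 0.199 with DHX9-837. Between hairpins they ran from -0.1 to -0.032, and the median there, -0.053, is itself smaller in size than this SD. With both hairpins, the count called higher ran from 6 to 17 and that called lower from 0 to 1 when single arrays were left out, and no other alternative moved either by over 1.5 times. The DHX9-1271 count of 7 became 2 without a level filter, 4 with cyclic loess, 13 with trend and robust moderation, 1 with only the arrays compared and 2 with the replicate block, and 0 to 11 with single arrays left out. The DHX9-837 count of 10 became 6 with only the arrays compared and 6 to 14 with single arrays left out, where its count called lower was 0 to 1. The lower call between hairpins, Eln, was 0 to 1 with single arrays left out. The causes of these shifts were not tested, except that leaving out arrays or groups leaves fewer samples. The replicate block gave 10 members higher with both hairpins, of which 9 were among the 12 (Mmp14, Pdgfrb and Vim were lost and Loxl1 was new), 10 with DHX9-837 and 1 lower between hairpins. Replicate numbers were not used as pairs in the main fit. Whether same-numbered arrays shared a batch was not tested, as correlations were not computed for different-numbered arrays. For DHX9-1271 against control, cyclic loess called 422 genes higher and 366 lower over all genes, against 475 and 266.

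Among single genes, the 30 called differences kept their sign in all 553 alternative values and lost their call in 144. Of 1249 alternative values for the 68 uncalled differences, 44 passed and 12 changed sign, none larger than 0.067. Those were Col1a1 with DHX9-837, at -0.02 with array weights and -0.067 to 0.092 with single arrays left out, and Vim between hairpins, at 0.019 with cyclic loess and -0.028 to 0.025 with single arrays left out. With single arrays left out, Lum with both hairpins ranged from -0.006 to 0.172, Eln from -0.015 to 0.047 and Fn1 from -0.075 to 0.03, and Mmp14 between hairpins from -0.025 to 0.067. With both hairpins the fit to only the arrays compared is the same fit. With 3 arrays a group, precision is limited by their number.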

Other observations

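Some members are neighbours in the genome, with no protein-coding gene between them in the RefSeq annotation of GRCm38.p6. Their differences with both hairpins on the log2 scale were 0.29 for Col4a1 and 0.13 for Col4a2, which start from one shared promoter region, 0.38 for Dcn and 0.10 for Lum, 0.26 for Col3a1 and 0.03 for Col5a2, and 0.25 for Col6a2 and 0.15 for Col6a1. In the first and second pair 1 gene was called and its neighbour was not, and in the others neither was. The difference within a pair was not tested, since levels of different probe sets are not compared.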
